A study of Mus musculus with 16 samples.

Results

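The DNase hypersensitive sites (DHS) described here are the intronic, TSS-distal sites of mouse liver that were called in both sexes of both strains. Overlapping peaks of the 4 group lists on chromosomes 1 to 19 were joined when they shared at least 1 bp, and a joined region was kept when it held a peak in every list, lay more than 2.5 kb from every transcription start site (TSS), overlapped the body of a protein-coding gene and touched no exon. This gave 3254 constitutive intronic DHS out of 50655 joined regions, or 18.1% of the 17999 regions found in all 4 lists. Because the sites were selected on the presence of peaks, their being open in every group is a property of the selection and not a result. They are enhancer candidates by position alone, since no histone mark was used here.

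The study assayed open chromatin by DNase-seq in liver nuclei of males and females of C57BL/6J (B6), a classical laboratory strain, and CAST/EiJ (CAST), a wild-derived strain. All mice were untreated, carried no engineered allele and were 8 weeks old, and nuclei of all groups were digested with 32 U of DNase I. Each group, Male_B6, Female_B6, Male_CAST and Female_CAST, had 4 libraries, 16 in all. The deposited peak lists were called on the 4 libraries of a group pooled, so each site has 1 value per group, there is no replicate error, and no difference between groups was tested.

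DNase I cuts DNA where nucleosomes have been displaced, usually by bound transcription factors, and a DHS therefore marks a regulatory element in use or poised for use. Introns, in particular long introns near the start of a gene, hold many of the enhancers of a mammalian genome, and an intronic enhancer may act on its host gene or on another gene nearby. In hepatocytes such elements are typically bound by combinations of forkhead (FOXA), HNF4A, C/EBP, HNF1, ONECUT and NFI factors, and in mouse liver pituitary growth hormone, acting through STAT5, sets much of the difference between male and female chromatin.

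The sequences below, read from the mm9 genome (plus strand, 200 bases with the Male_B6 summit at position 101), are shown because these 5 sites are among those that turned up at the extremes of the results and hold a match to one of the searched motifs. Capitals mark matches to the motifs that are spelled out further on. The letters are those of the B6 reference, and CAST variants are not written in.
Stat5a, chr11:100731847-100732046: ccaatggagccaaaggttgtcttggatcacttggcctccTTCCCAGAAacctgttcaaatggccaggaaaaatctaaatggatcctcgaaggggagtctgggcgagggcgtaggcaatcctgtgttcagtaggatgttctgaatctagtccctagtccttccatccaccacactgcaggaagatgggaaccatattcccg
Nsmce2, chr15:59343021-59343220: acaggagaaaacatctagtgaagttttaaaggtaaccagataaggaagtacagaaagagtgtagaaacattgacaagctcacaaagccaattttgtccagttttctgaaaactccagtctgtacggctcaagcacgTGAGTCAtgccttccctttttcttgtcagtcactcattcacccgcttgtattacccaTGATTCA
Lcmt1, chr7:130563607-130563806: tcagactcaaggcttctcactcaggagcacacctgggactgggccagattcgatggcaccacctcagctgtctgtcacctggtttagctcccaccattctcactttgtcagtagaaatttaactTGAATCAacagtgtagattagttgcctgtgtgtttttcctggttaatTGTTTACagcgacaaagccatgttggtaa
Eefsec, chr6:88290887-88291086: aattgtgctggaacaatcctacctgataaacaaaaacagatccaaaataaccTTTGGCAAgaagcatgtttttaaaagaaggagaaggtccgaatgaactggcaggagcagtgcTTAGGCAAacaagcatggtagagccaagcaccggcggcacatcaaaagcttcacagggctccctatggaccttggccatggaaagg
Fmo2, chr1:164822196-164822395: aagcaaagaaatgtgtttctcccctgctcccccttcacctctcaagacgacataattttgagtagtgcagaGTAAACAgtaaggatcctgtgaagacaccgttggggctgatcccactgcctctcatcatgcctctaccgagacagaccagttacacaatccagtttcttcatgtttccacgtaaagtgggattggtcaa
The Stat5a sequence, from an intron of the gene of a growth hormone-activated transcription factor, is among the strongest sites and holds a STAT5 match that starts at position 40. The Nsmce2 sequence, more open in males, holds matches to the AP-1 pattern TGANTCA, in which N is any base, at positions 137 and 194. The Lcmt1 sequence, more open in B6, holds a match to the same AP-1 pattern at position 125 and a forkhead match at position 172. The Eefsec and Fmo2 sequences, more open in CAST, hold C/EBP matches at positions 53 and 115 and a forkhead match at position 72, respectively.

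Peak numbers per list on the autosomes were 38107 for Male_B6, 25782 for Female_B6, 38971 for Male_CAST and 24467 for Female_CAST. The read number per library is not in the peak lists, but the genome-wide background of each list, recovered from its fold enrichments and p-values, was 15.35, 13.93, 14.25 and 7.94 reads in the same order, so the Female_CAST list was the shallowest. The tissue label was checked against genes that mark liver cell types: 20 of 21 hepatocyte markers had a DHS of all 4 lists within 2.5 kb of a TSS, against 1 of 18 Kupffer cell markers, 0 of 20 stellate cell markers, 7 of 20 sinusoidal endothelial markers, 5 of 19 bile duct markers, 1 of 20 T and B lymphocyte markers and 45.1% of all protein-coding genes. The lists come from bulk nuclei, in which a site open in fewer cells and a site less open in each cell cannot be told apart.

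Intronic DHS were found in all 4 lists less often than DHS at promoters. Of 14769 TSS-distal intronic regions, 22.03% were found in all 4 lists (95% Wilson interval 21.4% to 22.7%), 1928 in 3 lists, 2986 in 2 lists and 6601 in a single list. The share found in all 4 lists was 25.7% of intergenic regions, 25.4% of TSS-distal exonic regions and 59.1% of regions within 2.5 kb of a TSS. These intervals cover the counting of regions only. Being found in all 4 lists also depends on peak strength and on the depth of each list. Intronic regions found in 1 to 3 lists ranked low, at median percentiles 27.3 in Male_B6, 20.7 in Female_B6, 28.8 in Male_CAST and 21.6 in Female_CAST. The part of detection in the shares was not tested. The sites were simple in structure: 3127 of the 3254 consisted of exactly 4 peaks, 1 per list, and the median joined width was 818 bp.

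The strength of a site is given as fold enrichment at the summit, the number of DNase reads piled up there plus 1 over the local background plus 1. The median fold enrichment of the 3254 sites was 4.65 in Male_B6, 3.34 in Female_B6, 5.31 in Male_CAST and 4.23 in Female_CAST. Behind these medians were pileups of 121, 63, 130.5 and 50 reads, so the values of single sites are more precise in the male lists than in the female lists. The same sites ranked at the median percentile 67.3, 51.5, 70.3 and 53.3 among all peaks of their list. DHS of all 4 lists near a TSS were stronger, with medians of 5.81, 4.29, 6.08 and 4.96, and intergenic DHS of all 4 lists lay between the classes at 5.11, 3.65, 5.70 and 4.51. Intronic regions found in only 1 to 3 lists, which by construction include the sites near the detection limit, had medians of 2.63, 2.48, 2.80 and 3.02.

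**Figure D1:**
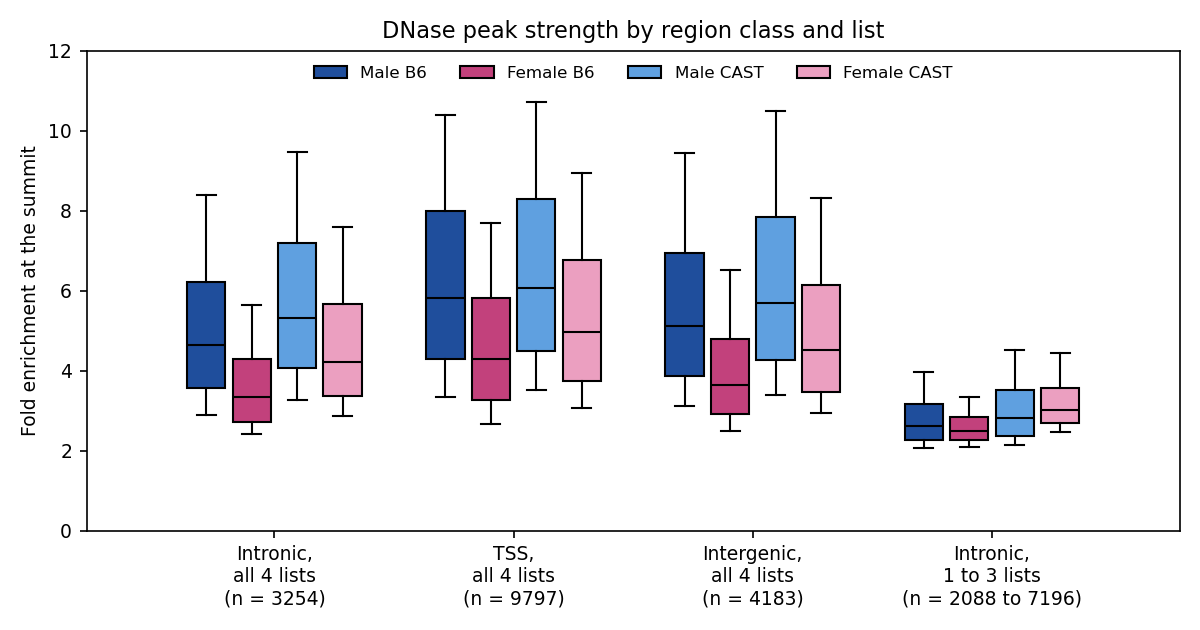
Fold enrichment at the summit (linear axis) of constitutive intronic DHS, of TSS and intergenic DHS found in all 4 lists, and of intronic DHS found in 1 to 3 lists, for each group list. Boxes show quartiles with the median as a line, and whiskers run from the 10th to the 90th percentile of regions. Within each class found in all 4 lists the Female_B6 box is the lowest and the Male_CAST box the highest, and constitutive intronic DHS sit below TSS DHS in every list.

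The order of the lists was similar from site to site. Male_CAST held the highest of the 4 values at 2022 sites (62.1%) and Male_B6 at 865 (26.6%), while Female_B6 held the lowest at 2523 (77.5%). This order was shared with TSS and intergenic DHS, so group ratios below were centred on the median log2 ratio of all 17999 regions found in all 4 lists. Before centring that median was 0.42 for Male_B6 over Female_B6, 0.26 for Male_CAST over Female_CAST, -0.08 for Male_B6 over Male_CAST and -0.25 for Female_B6 over Female_CAST. Ranks of the sites were closer between the sexes of a strain (Spearman's correlation 0.84 in B6 and 0.84 in CAST) than between the strains (0.75 in males and 0.69 in females). These are descriptions over 3254 sites of the same 4 lists, and sites are not replicates. The summits of the 4 lists spanned a median of 97 bp per site, against 85 bp at TSS DHS and 98 bp at intergenic DHS.

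Some sites were strong in every list, though the class ranked below TSS and intergenic DHS of all 4 lists. In all 4 lists, 1317 sites (40.5%) ranked above their list's median and 142 (4.36%) ranked in its top 10%, while 359 (11.03%) were below the median of each list. These counts were not made for other classes. In Male_B6, Female_B6, Male_CAST and Female_CAST, TSS DHS had median percentiles of 78.6, 70.8, 77 and 65.7. Those of intergenic DHS were 72.6, 59.3, 74.03 and 58.7. The 10 sites with the highest rank in their weakest list had fold enrichments of 9.95 or more in every list. The strongest lay in intron 1 of Kctd16 on chromosome 18, with 26.3 in Male_B6, 24.4 in Female_B6, 28.6 in Male_CAST and 25.8 in Female_CAST. A site in intron 4 of Srd5a1, where the gene model of Nsun2 overlaps, had 20.4, 15.5, 17.95 and 15.6. Srd5a1 encodes a steroid 5-alpha reductase and Nsun2 an RNA methyltransferase. In both sites the highest and the lowest of the 4 values differed by less than 1.5-fold.

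Of the other 8 sites of this group, 3 are described here, chosen after their values were seen. The Stat5a site, in intron 5 and 7909 bp from the nearest TSS, had fold enrichments of 13.6, 10.9, 16.5 and 13.1 in Male_B6, Female_B6, Male_CAST and Female_CAST. The site in intron 1 of Prlr, the prolactin receptor gene, had 14.3, 9.95, 14.02 and 12.5. The site in intron 1 of Acsf2, an acyl-CoA synthetase family gene, had 14.8, 10.002, 18.2 and 16.03. The remaining 5 lay in Ptprm, C1qtnf3, Flot2, Mmd2 and the long gene model Gm20388, near Jph3.

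At the selection limits, a site 2505 bp from the Rhbdf2 TSS was included with fold enrichments of 3.46, 3.25, 4.39 and 3.25, and one 2507 bp from the TSS of Scarb1 with 3.33, 2.48, 4.04 and 3.83. Regions 2500 bp from the Hip1r TSS (4.54, 3.29, 3.30 and 2.81) and 2499 bp from the Qsox1 TSS (4.39, 3.20, 5.49 and 3.99) were left out. The included site with the lowest -log10 q in any list, 1.36 in Male_B6, lay in Tuba1c and had a fold enrichment of 1.70 there, against 2.97, 2.34 and 2.71 in the other lists. Intronic regions of Grm7 (10.9, 6.49 and 6.52) and Erc2 (11.1, 8.04 and 7.47) were strong in 3 lists but had no Female_CAST peak.

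The sites were spread over many genes. Of 21418 protein-coding genes annotated on chromosomes 1 to 19, 1795 (8.38%) held at least 1 site, 1080 held exactly 1, 387 held 2 and 98 held 5 or more. Longer genes held more: the share with a site rose from 0.130% of genes under 10 kb to 15.6% of genes of 30 to 100 kb and 40.2% of genes of 300 kb or more. The density did not keep rising. It was 0.443 sites per 100 kb in genes of 100 to 300 kb and 0.222 in genes of 300 kb or more. The distance from a site to the nearest TSS had a median of 16023 bp, shorter than the 26643 bp of constitutive intergenic DHS. Sites had a median distance of 26264 bp to the next one, and 602 sites (18.5%) had another within 5 kb.

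The genes with most sites were long. Gm20388 counted 46, but this gene model of 4434.88 kb on chromosome 8 spans 74 other protein-coding genes, and only 24 of its sites lay in no other coding gene. Fgfr2, with 13, has a model of 3009 kb that overlaps 32 other coding genes. Among the others, Rora, the gene of a nuclear receptor that acts in the circadian clock and lipid metabolism, held 15 sites with fold enrichments of 2.54 to 11.9 in Male_B6, 2.14 to 8.47 in Female_B6, 2.57 to 10.6 in Male_CAST and 3.25 to 9.48 in Female_CAST. Arhgap26, a GTPase-activating protein gene, held 15, Prkce, encoding protein kinase C epsilon, 14, Itpr1, encoding an IP3 receptor calcium channel, 12, and Rad51l1 and Zmiz1 11 each. Lpp and Sh3pxd2a held 10 each. Zmiz1 had the highest density of these 10 genes, 5.30 sites per 100 kb, against 0.341 per 100 kb over all coding genes.

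Sites lay in the first intron more often than the length of these introns would give. Numbering introns in the longest transcript, 1228 of 3254 sites (37.7%, interval 36.1% to 39.4%) lay in intron 1 and 19.8% in intron 2. Of the intron bases of the same host genes more than 2.5 kb from a TSS, 25.7% belonged to intron 1. When a site was counted if any transcript of the host gene placed it in the first intron, the share was 48.3%. The introns that held sites were long, with a median of 29716 bp, and the median distance to the nearer exon was 6415 bp.

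In lists of liver regulators and metabolic genes, 31.6% to 50.0% of the genes held an intronic site, plasma protein genes aside, against 8.38% of all protein-coding genes. The lists were drawn up from general knowledge with earlier results of these data known, and, apart from plasma protein genes, their median gene lengths of 26.7 to 47.1 kb exceed the 15.5 kb of all coding genes, so shares are descriptions with no test. Of 24 genes of hepatocyte transcription factors, 12 (50.0%, interval 31.4% to 68.6%) held a site. The same share, 50.0%, was found for lipid and cholesterol genes (23 of 46) and for growth hormone and sex-bias regulators (11 of 22). It was 42.4% for nuclear receptors (14 of 33), 40.0% for insulin and glucose genes (10 of 25), 34.4% for drug metabolism and transport genes (11 of 32) and 31.6% for circadian clock genes (6 of 19). Plasma protein genes, with a median length of 15.5 kb like that of all coding genes, had 17.02% (8 of 47), and hepatocyte markers 4.76% (1 of 21, Hnf4a).

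**Figure D2:**
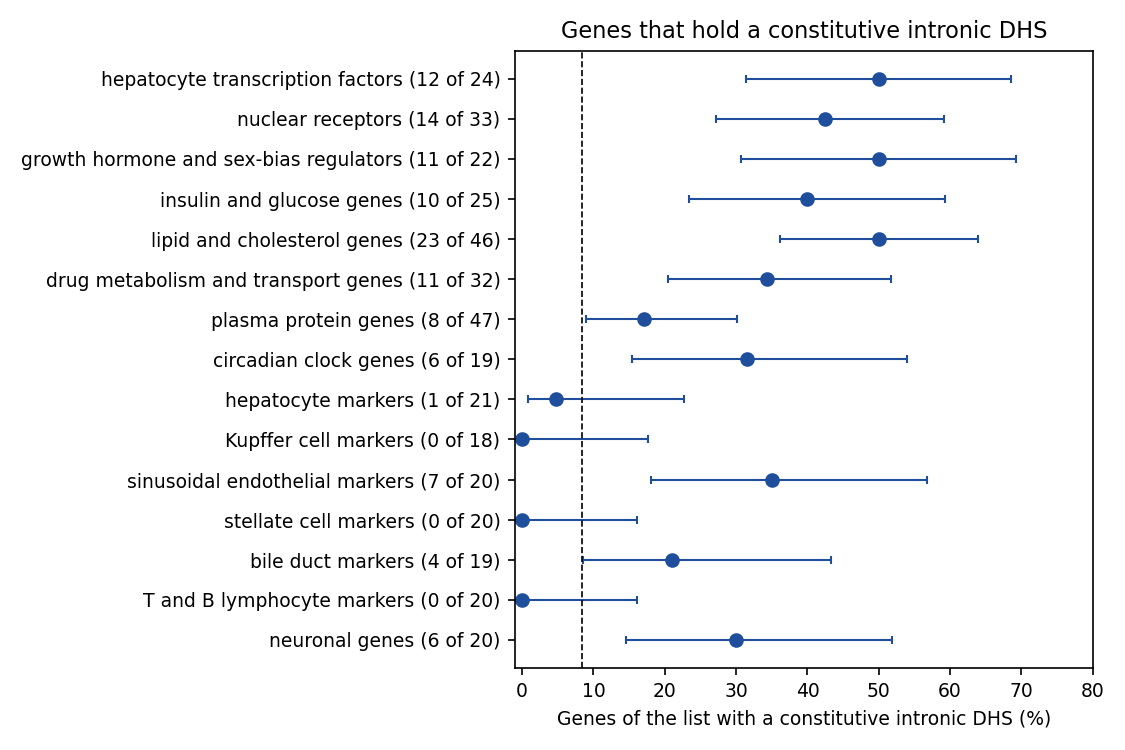
Share of the genes of each list that hold a constitutive intronic DHS (percent, points) with 95% Wilson intervals (bars, counting of genes only) and the number of genes. The dashed line is the share over all protein-coding genes, 8.38%. Lists of liver regulators lie to the right of it, and so do sinusoidal endothelial markers, bile duct markers and neuronal genes. Hepatocyte markers lie to the left, and 3 marker lists lie at 0%.

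No gene of the Kupffer cell (0 of 18), stellate cell (0 of 20) or lymphocyte (0 of 20) marker lists held a site. The upper Wilson limits of these shares were 17.6%, 16.1% and 16.1%, which include the 8.38% of all genes. Sinusoidal endothelial markers held sites in 7 of 20 genes, with 4 in Nrp1 and 2 each in Gata4 and Pecam1, and bile duct markers in 4 of 19, led by 2 in Prom1 and 1 in Bicc1. Neuronal genes held sites in 6 of 20, led by 5 in Ptprd, but these genes have a median length of 1274 kb and a density of 0.0357 sites per 100 kb. Hepatocyte transcription factor genes had 2.00 and lipid genes 1.97 sites per 100 kb, the highest of the lists. Sinusoidal endothelial markers had 0.874, bile duct markers 0.375 and hepatocyte markers 0.187, against 0.341 over all coding genes.

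Among the transcription factor genes, Nfia and Nfib, encoding nuclear factor I proteins, held 9 and 8 sites and Nr5a2, the gene of the bile acid and cholesterol regulator LRH-1, held 5. The Nfia sites ranged from 2.72 to 8.19 in Male_B6, 1.97 to 6.52 in Female_B6, 2.49 to 8.05 in Male_CAST and 2.45 to 7.77 in Female_CAST. The Nr5a2 sites ranged from 2.59 to 5.90, 2.48 to 4.41, 2.88 to 7.12 and 3.27 to 5.50 in the same order. Of nuclear receptors, Thrb, the thyroid hormone receptor beta gene, held 7 and Nr1h4, Nr3c1 and Esr1, the genes of the bile acid, glucocorticoid and estrogen receptors, 3 each. A Thrb site 36869 bp from a TSS in intron 1, had 10.8, 8.99, 12.2 and 9.86 in the 4 lists, and another, 68048 bp from a TSS, had 7.27, 4.69, 13.8 and 9.44. The Hnf4a site, in intron 3, was stronger in CAST, with 3.63 and 2.53 in B6 males and females and 6.11 and 5.38 in CAST males and females.

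Growth hormone genes held 27 sites. The growth hormone receptor gene Ghr had 5, Igf1, the gene of the growth factor that growth hormone induces in liver, 4, and Stat5b, Cux2, Tox and Prlr 3 each. The strongest Igf1 site, 21764 bp from a TSS in intron 2, had fold enrichments of 11.1, 7.94, 11.02 and 9.32 in Male_B6, Female_B6, Male_CAST and Female_CAST and held forkhead, NFI, STAT5 and AP-1 matches. The strongest Ghr site, in intron 1, had 8.77, 5.37, 9.70 and 7.76. Cux2 encodes a repressor that is expressed in female mouse liver, and its 3 sites, all in intron 2, were more open in females relative to the centre of all regions. The first had fold enrichments of 9.15, 7.41, 6.94 and 8.73, the second 3.41, 3.51, 3.97 and 7.13, and the third 5.17, 5.03, 4.88 and 6.15. Centred log2 ratios of male over female were -0.12, -0.46 and -0.38 in B6 and -0.60, -1.11 and -0.60 in CAST.

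Sites of metabolic genes included 5 in Pcx (pyruvate carboxylase), 3 each in Foxo3 and Ppargc1a, which encode regulators of gluconeogenesis, and 4 each in Elovl6 (fatty acid elongation), Scarb1 (the HDL receptor) and Dgat2 (triglyceride synthesis). An Elovl6 site in intron 2, 25880 bp from a TSS, was most open in CAST, with 3.31 in Male_B6, 2.67 in Female_B6, 8.92 in Male_CAST and 5.51 in Female_CAST. Of drug metabolism genes, Por, whose product passes electrons to all microsomal cytochromes P450, held 5 sites, Ephx1 2 and Abcb4 1. The strongest Por site had 8.88, 6.03, 7.87 and 6.35. Masp1 and the complement gene C8a held 4 and 2 sites, A1cf 2, and of clock genes Hlf held 5 and Per2 3. The strongest Per2 site, in intron 9, had 8.87, 5.87, 10.6 and 7.51.

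The DNA under the sites held motifs of hepatocyte factors. Motifs were searched as exact letters, with N for any base, on both strands in 300 bp around the Male_B6 summit. Each was counted on its own, so that matches of different motifs may overlap. The forkhead motif TGTTTAC was found at 9.28% of sites (interval 8.33% to 10.3%), against 4.38% of windows 1 kb to either side of the same summits, 3.21% of TSS DHS and 6.57% of all 50655 joined regions. The C/EBP motif TTGCNNAA was found at 23.3%, against 12.6%, 9.26% and 17.2%. The HNF1 motif GTTAATNAT was found at 3.78%, against 0.799%, 1.06% and 2.06%, and the HNF4A motif CAAAGTCCA at 2.61%, against 0.492%, 0.898% and 1.67%. The NFI motif CTTGGCA was found at 13%, against 5.81%, 5.09% and 9.03%, and the ONECUT motif ATCAATA at 6.21%, against 3.50%, 1.28% and 5.01%. At least 1 of these 6 motifs or the NR5A2 motif was present at 48.0% of sites, 25.6% of the flanking windows and 18.6% of TSS DHS. The NR5A2 motif TCAAGGTCA on its own was near its flanking share, at 1.26% of sites, 0.999% of flanking windows and 1.04% of all joined regions.

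The shares of the 6 motifs were close to those of intergenic DHS of all 4 lists, which held the forkhead motif at 9.16%, C/EBP at 24.2%, HNF1 at 4.06%, HNF4A at 2.51%, NFI at 11.5% and ONECUT at 6.38%. Intronic regions found in only 1 to 3 lists held them at 7.99%, 19.1%, 1.98%, 1.73%, 10.5% and 6.43%, so ONECUT was no rarer there than at the constitutive sites.

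The motifs of STAT5, AP-1 and the glucocorticoid receptor, factors that answer to extracellular signals, were also closer to their flanking shares. The STAT5 motif TTCNNNGAA was found at 11.1% of sites and 8.64% of flanking windows, the AP-1 motif TGANTCA at 11.1% and 8.22%, and the glucocorticoid receptor motif ACANNNTGT at 11.9% and 10.6%. Among all joined regions these 3 shares were 9.92%, 9.29% and 9.39%. Motifs that mark promoters and insulators were rarer than at TSS DHS. The CTCF core AGNNGGCGC was found at 1.17% of sites against 12.1% of TSS DHS and 4.66% of all joined regions, the SP motif GGGCGGG at 3.63% against 42.7% and 13.1%, the ETS motif CCGGAAGT at 0.338% against 7.10% and 1.98%, and the NRF1 motif GCGCATGCG at 0.154% against 3.46% and 0.833%. In the flanking windows these 4 shares were 0.999%, 1.74%, 0.246% and 0.0922%, so the SP motif was more frequent at the sites than beside them. Base composition moved with these shares: the median GC content was 47.7% at the sites, 45.3% in the flanks and 63.7% at TSS DHS, and its part in the shares was not tested. A match is a stretch of letters and not a measured binding site.

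**Figure D3:**
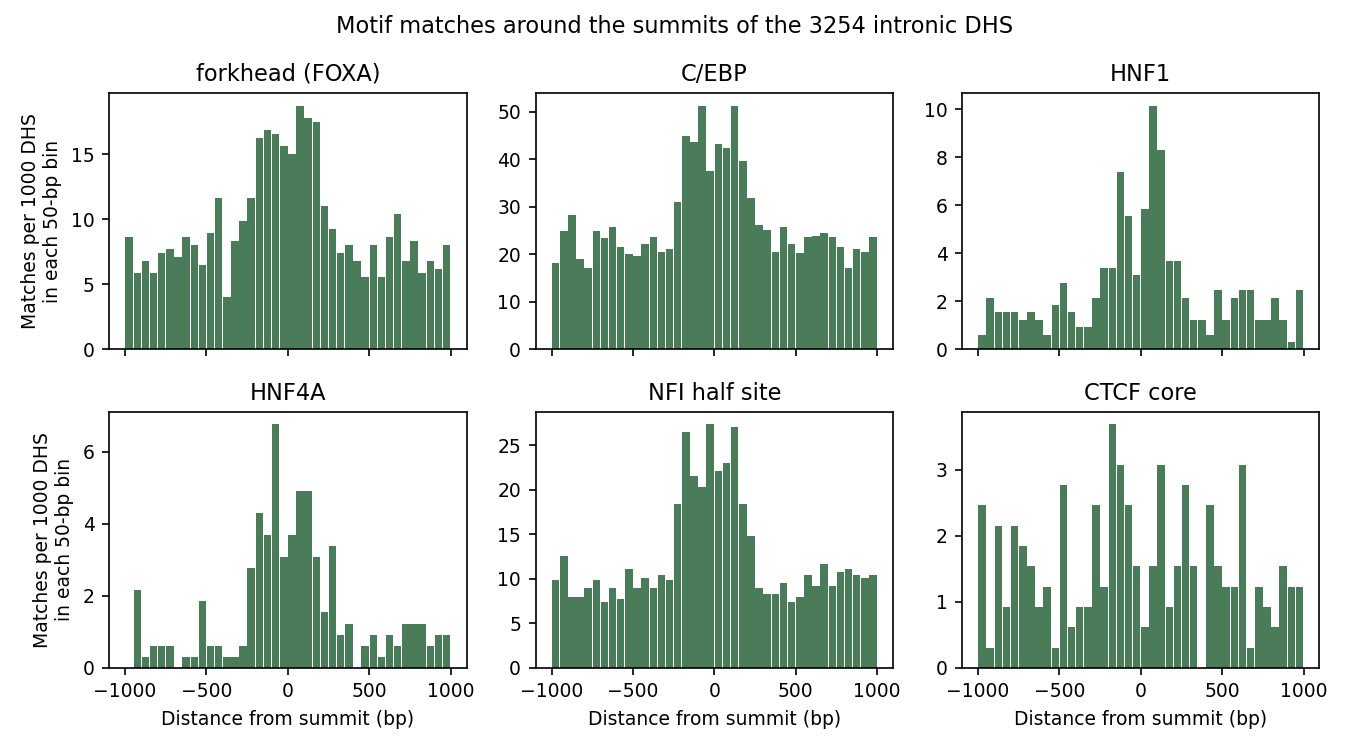
Number of motif matches per 1000 constitutive intronic DHS in 50-bp bins, by distance from the Male_B6 summit (bp), for 6 motifs; each panel has its own linear axis from 0. Matches to the forkhead, C/EBP, HNF1, HNF4A and NFI motifs pile up around the summit, with up to 10.1 HNF1 matches per 1000 sites in a bin, while CTCF core matches stay under 4 per bin and show no clear peak.

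Motif shares were compared between weak and strong sites. When the sites were ranked by their lowest percentile over the 4 lists and split into 5 equal groups, the forkhead motif was found at 8.45% of the weakest group (interval 6.55% to 10.8%) and at 9.98% of the strongest (7.91% to 12.5%). The C/EBP motif was found at 22.1% and 24.4%, and the HNF4A motif at 2.30% and 1.54%. The ONECUT motif was found at 4.92% (3.50% to 6.86%) and 6.91% (5.21% to 9.12%), the NFI motif at 13.7% (11.2% to 16.5%) and 10.3% (8.19% to 12.9%), and the CTCF core at 0.768% (0.328% to 1.79%) and 1.69% (0.946% to 3.0001%). The intervals of the weakest and the strongest group overlapped for every motif searched. Overlap of separate intervals is not a test of a difference, and none was made. The median fold enrichment in Male_B6 went from 3.15 in the weakest group to 8.18 in the strongest. The share in the first intron was 39.3% and 36.9%.

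Few sites were past 2-fold between males and females. The fold enrichment was higher in males at 93.1% of sites in B6 and 84.1% in CAST, with median log2 ratios of 0.44 and 0.29. TSS DHS had medians of 0.41 and 0.25, and the ratios below are centred on the median of all regions in all 4 lists, which puts the medians of the sites at 0.02 in both strains. A ratio past 2-fold was found at 6 sites with the higher value in Male_B6, where 0.150% of all regions in all 4 lists were past it, and at 1 with the higher value in Female_B6 (0.0333%). In CAST the counts were 10 for males (0.178%) and 4 for females (0.0389%). No site was past 2-fold in the same direction in both strains, where the background was 0.0111% for males and 0.00556% for females. There were 11 such sites without centring (36 of all 17999 regions) and 4 with the ratio taken on fold enrichment above 1 (21 of all regions). The requirement of a peak in each list removes sites lost in 1 sex, so these counts do not describe sex-biased DHS in general. Without centring, the B6 counts were 101 for males and 0 for females and the CAST counts 53 and 2; with the ratio taken on fold enrichment above 1 they were 35 and 24 in B6 and 42 and 26 in CAST; centred on the intronic sites themselves, 6 and 2 in B6 and 9 and 4 in CAST. Over all regions the B6 counts were 378 and 0 without centring and 147 and 96 on fold enrichment above 1, and the CAST counts 187 and 2, and 148 and 97. Centred on the intronic sites they were 25 and 7 in B6 and 29 and 10 in CAST.

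At 1.5-fold in either direction, 5.35% of sites were past the limit in B6 and 5.56% in CAST, against 3.78% and 4.12% of all regions. At this limit, 17 sites were higher in males in both strains (0.522% of sites, background 0.333%) and 7 were higher in females in both strains (0.215%, background 0.111%). The log2 ratios of the strains were weakly related over the sites, with a Spearman's correlation of 0.24 and the same sign at 57.8% of sites. Other classes were similar, with 0.27 and 59.5% at intergenic DHS and 0.20 and 57.2% at TSS DHS. At 1.5-fold, 3 sites (0.0922%) went in opposite directions in B6 and CAST, against a background of 0.0444%. All of these are descriptions from 1 value per group.

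The 5 sites with the largest male excess shared by both strains lay in Slc26a3, Nhsl1, Nsmce2, Fgfr2 and Fgd4. The Slc26a3 site, in intron 1 of a chloride and bicarbonate exchanger gene, had 6.49 in Male_B6, 2.46 in Female_B6, 6.95 in Male_CAST and 3.09 in Female_CAST, from pileups of 132, 36, 137 and 31 reads. Its centred male-to-female ratio was 1.97-fold in B6 and 1.87-fold in CAST, with counting intervals of the log2 ratios of 0.45 to 1.51 and 0.34 to 1.47. The Nhsl1 site had 9.06, 3.77, 7.52 and 3.19, and the Fgd4 site, in a gene of a guanine nucleotide exchange factor, 10.2, 4.49, 10.1 and 4.36. The Nsmce2 site, whose sequence is shown above and whose nearest TSS is that of Trib1 at 136307 bp, had 7.33, 3.06, 7.40 and 3.38. The Fgfr2 site lay in the long gene model, nearest to Dmbt1, and had 5.26, 2.28, 7.41 and 3.58. In each of these 5 sites both male values were above both female values.

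Sites with a female excess shared by both strains were weaker. Of the 5 largest, 4 are described, in Pebp4, Ptplb, Ttc39c and in Sctr, the secretin receptor gene. The Ptplb site, in intron 3, had fold enrichments of 2.81 in Male_B6, 3.28 in Female_B6, 2.72 in Male_CAST and 3.91 in Female_CAST, from pileups of 51, 49, 45 and 34 reads. After centring it was 1.56-fold higher in females of B6 and 1.73-fold higher in females of CAST. The Sctr site had 2.13, 2.41, 2.29 and 3.19, the Pebp4 site 2.25, 2.68, 2.26 and 2.96, and the Ttc39c site 3.26, 3.80, 3.46 and 4.75. Each of the 4 sites had both female values above both male values even before centring. The counting interval of the log2 ratio reached 0 for Pebp4 in CAST (-1.32 to 0.02) and for Sctr in B6 (-1.21 to 0.01).

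After centring, more sites were past 2-fold between the strains than between the sexes, and most of these were higher in CAST, as among all regions. Without centring, 99 sites were past 2-fold between the strains in males and 101 between the sexes in B6 (313 and 378 of all regions). The median centred log2 ratio of B6 over CAST was -0.09 in males and -0.09 in females, against 0.03 and 0.04 at TSS DHS. The other classes away from a TSS also lay toward CAST, with -0.09 and -0.07 at exonic DHS and -0.04 and -0.04 at intergenic DHS. In males, 20 sites were past 2-fold with the higher value in B6 (0.615% of sites, background 0.344%) and 64 with the higher value in CAST (1.97% of sites, background 1.11%). In females the counts were 15 for B6 (0.461% of sites, background 0.306%) and 44 for CAST (1.35% of sites, background 0.767%). Of the sites past 2-fold, 76.2% in males and 74.6% in females were higher in CAST, and of all regions past 2-fold 76.3% and 71.5%. At 1.5-fold the shares were 75.6% and 72.4% of the sites, against 66.7% and 59.2% of all regions. In the same direction in both sexes, 8 sites were higher in B6 (0.246%, background 0.122%) and 20 higher in CAST (0.615%, background 0.356%). At 1.5-fold in both sexes the counts were 38 (1.17%, background 0.883%) and 131 (4.03%, background 2.17%). Centring on the intronic sites themselves gave 24 and 47 in males and 20 and 32 in females, and no centring 12 and 87 in males and 5 and 139 in females, and ratios of fold enrichment above 1 gave 47 and 169 in males and 51 and 151 in females. The same 3 scalings put 94 regions toward B6 and 148 toward CAST in males over all regions (88 and 94 in females), then 42 and 271 (12 and 416 in females), and then 192 and 484 (250 and 453 in females). Under each scaling the larger count was toward CAST for all regions as well. On fold enrichment above 1, 78.2% of the sites past 2-fold in males and 74.8% in females were higher in CAST, against 71.6% and 64.4% of all regions. Centred on the intronic sites it was 66.2% and 61.5%, against 61.2% and 51.6%. Reads of CAST mice were aligned to a genome with CAST variants written in, and alignment and chromatin cannot be told apart for single sites.

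**Figure D4:**
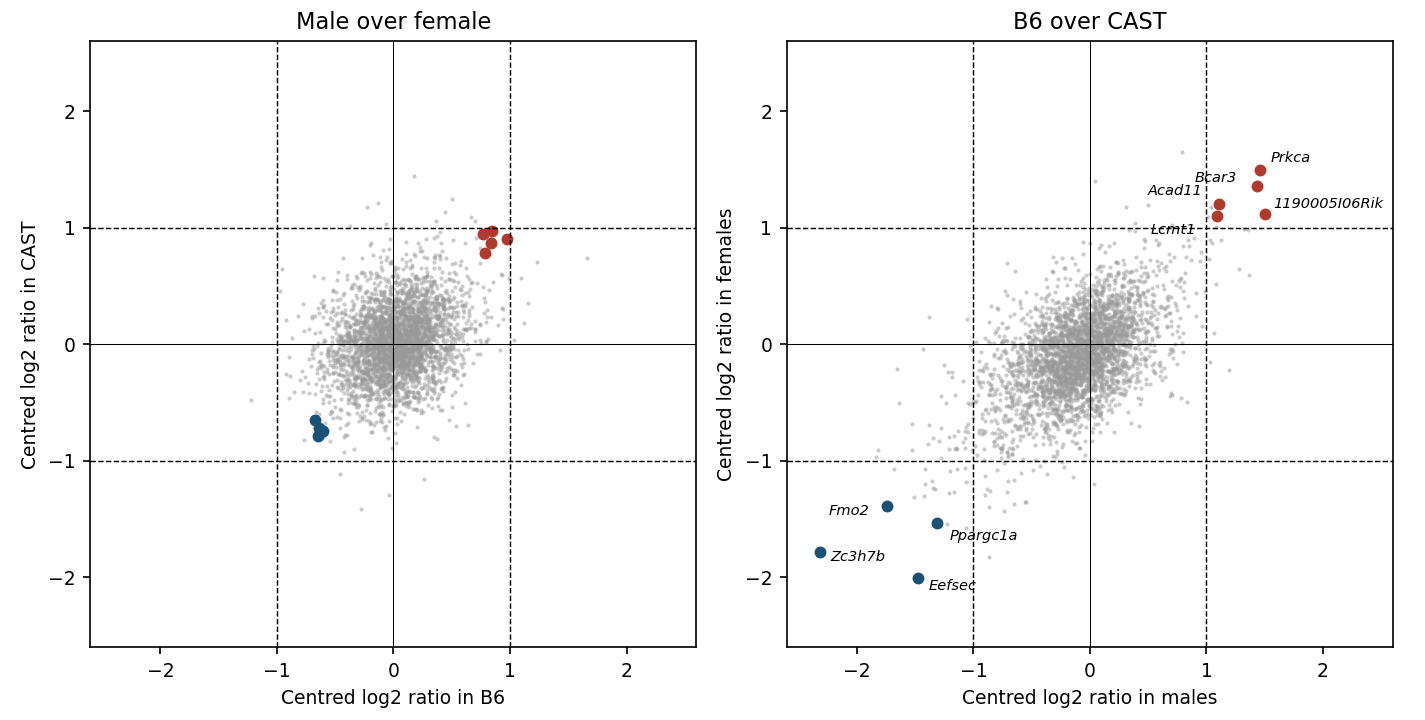
Centred log2 ratios of fold enrichment at the 3254 constitutive intronic DHS: male over female in B6 against CAST (left) and B6 over CAST in males against females (right). Each grey point is a DHS, coloured points are 4 or 5 of those with the largest ratio shared by both axes in each direction, and dashed lines mark 2-fold. In the left panel no site is past 2-fold on both axes in the same direction; in the right panel 8 sites are at the upper right and 20 at the lower left.

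The strain ratio was shared by the sexes more than the sex ratio was by the strains, as in the other classes. Over the sites, Spearman's correlation between the male and female strain ratios was 0.48, with the same sign at 67.3%. It was 0.49 (67.2%) at intergenic DHS and 0.36 (63.0%) at TSS DHS. The male and the female comparison use separate libraries, and no test of the difference between the coefficients was made. No site was past 2-fold in opposite directions in the 2 sexes (background 0%). At 1.5-fold there were 2 (0.0615%, background 0.0222%).

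The sites most open in CAST differed by several fold. The site in intron 7 of Zc3h7b, a zinc finger protein gene, had fold enrichments of 2.57 in Male_B6, 2.79 in Female_B6, 13.5 in Male_CAST and 11.4 in Female_CAST, from pileups of 41, 41, 458 and 171 reads. Its centred ratio was 4.97-fold in males and 3.45-fold in females. The Eefsec site, in intron 4 of the gene of the selenocysteine elongation factor, had 4.68, 2.66, 13.7 and 12.6. The Fmo2 site, in a flavin-containing monooxygenase gene, had 2.80, 3.27, 9.91 and 10.2. The site in intron 2 of Ppargc1a, which encodes the coactivator PGC-1 alpha, had 3.32, 2.55, 8.74 and 8.75, while the other 2 Ppargc1a sites were not past 2-fold between the strains in either sex. In each of these 4 sites both CAST values were above both B6 values.

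The sites most open in B6 lay in Prkca, Bcar3, Gm20388 (where it overlaps 1190005I06Rik), Acad11 and Lcmt1. The Prkca site, in intron 2 of the protein kinase C alpha gene and nearest to the TSS of Apoh, had 10.96 in Male_B6, 7.29 in Female_B6, 4.21 in Male_CAST and 3.08 in Female_CAST, from pileups of 266, 136, 79 and 33 reads. Its centred ratio was 2.75-fold in males and 2.81-fold in females. The Bcar3 site had 7.28, 6.12, 2.86 and 2.83. The Acad11 site, in an acyl-CoA dehydrogenase gene, had 6.18, 4.96, 3.05 and 2.55, and the Lcmt1 site, in the gene of a methyltransferase that acts on protein phosphatase 2A, 6.04, 4.64, 2.995 and 2.56. The counting intervals of the log2 ratios of the Prkca site were 1.1 to 1.82 in males and 0.94 to 2.04 in females. The sites were chosen by these ratios, so the intervals are a description.

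**Figure D5:**
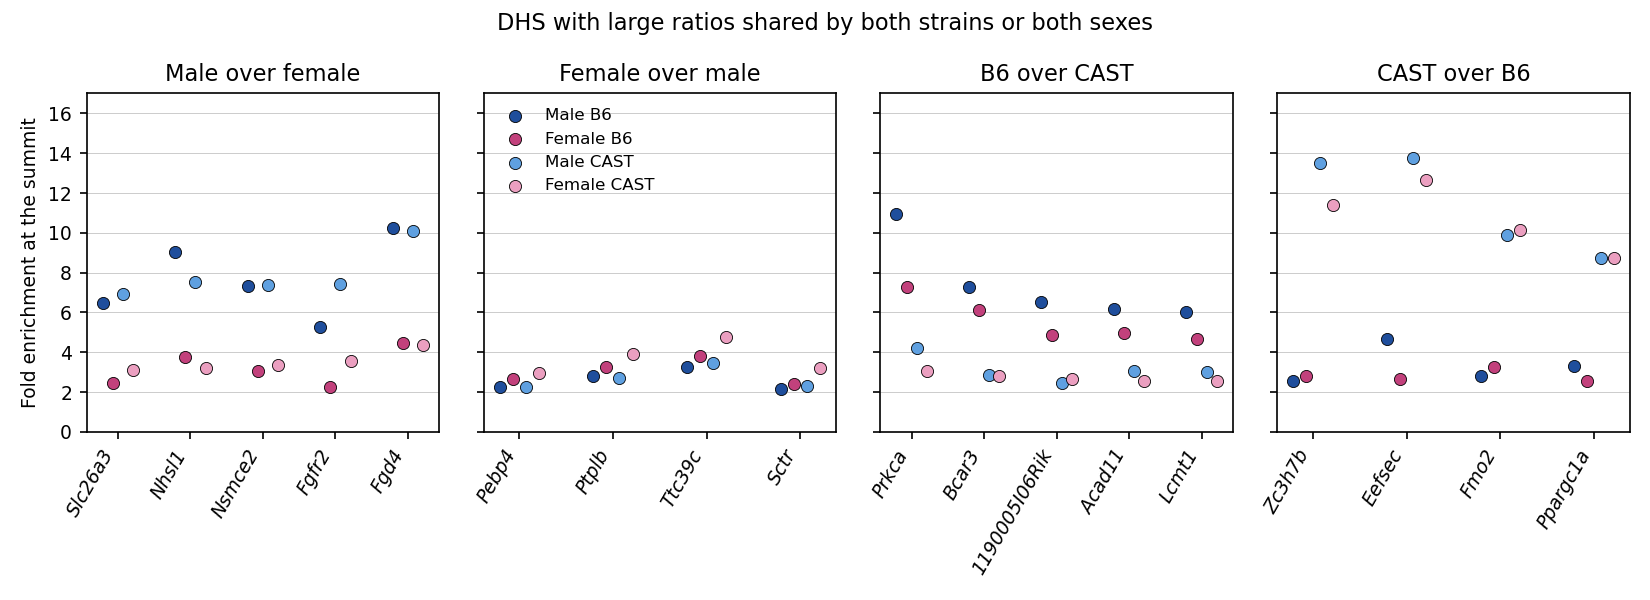
Fold enrichment at the summit (linear axis) in each group list for 18 of the 20 sites with the largest ratios shared by both strains (the male and female panels) or by both sexes (the B6 and CAST panels). Each point is 1 pooled list. The 4 sites plotted as higher in CAST reach 8.74 to 13.7 in Male_CAST, while the 4 plotted as higher in females stay under 5 in every list.

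Group ratios of sites with and without a match were compared for the 10 motifs matched at 50 or more sites, a limit chosen after the values were seen. The difference in the median log2 ratio of male over female ranged from -0.05 (SP) to 0.10 (ONECUT) in B6 and from -0.04 (SP) to 0.08 (STAT5) in CAST. That of B6 over CAST ranged from -0.13 (STAT5) to 0.06 (forkhead) in males and from -0.03 (glucocorticoid receptor) to 0.06 (HNF4A) in females. At the 202 sites with an ONECUT match the male over female ratio was 0.12 against 0.02 at the others in B6, and 0.05 against 0.02 in CAST. At the 362 sites with a STAT5 match the B6 over CAST ratio was -0.20 against -0.07 in males, and -0.10 against -0.09 in females. Their median fold enrichment in Male_CAST was 5.89 against 5.25, and in Male_B6 4.45 against 4.67.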

How the data were processed

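DNase-seq was done on 16 liver libraries, 4 per sex and strain. Per the labels and the study's methods, the authors aligned reads with Bowtie2, keeping unique hits, B6 reads to mm9 and CAST reads to mm9 carrying CAST variants and then converted back; peaks were called with MACS2 on the pooled libraries of a group, and blacklisted regions and peaks made of duplicate reads were removed. The peak threshold is not given in the sources used here. The deposited lists give per peak a score, the fold enrichment (a ratio to the local background), the -log10 p-value and -log10 q-value, and the summit.

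Peaks were joined with Python 3.11.15 and checked with bedtools 2.31.1; in a joined region the peak with the highest -log10 q stood for its list. Annotation was GENCODE vM1 on NCBIM37 (mm9), with TSS of protein-coding, lincRNA and processed transcripts. Summit pileups were recovered from fold enrichment and p-value, and came out whole within 0.02 reads for 99.87% to 99.97% of peaks. Intervals of log2 ratios are 95% Poisson intervals from pileups and cover counting error only; DNase reads carry no molecular identifiers, and the spread between mice is not in them. Ratios were centred on all regions of the 4 lists. Of 3254 windows, 1 (in Snx9) had a near-identical copy elsewhere (minimap2 2.31-r1302, at least 90% identity over 80%). Joining, classification, pileup recovery and motif search were tested on simulated data.

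Named were the 10 genes with most sites, the 10 sites with the highest percentile in their weakest list, the 5 sites per direction with the largest smaller-of-2 ratio, the 3 leading genes of each gene list, and the sites beside the selection limits; Stat5b, Tox, Prlr, Nr1h4 and Nr3c1 and the counts for other genes were added from the lists, and which sequences to print was chosen, after values were seen. Some items that these rules name are not reported here. The members and lists were chosen with earlier results of these data known. Alternatives covered the joining, the peak threshold, the TSS limit, the annotation, centring and the motif window.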

Additional observations from a re-analysis of the deposited data

How the results depend on the processing

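Of 79 values of the 10 main results under alternative settings, 51 stayed near the value reported and 28 moved, and none comes from a test. Joining peaks only at an overlap of 50% of both, joining peaks within 500 bp, a TSS limit of 1 kb and the TSS and exons of coding genes alone gave 2891, 3203, 3647 and 3335 sites. Keeping only peaks at or above the median -log10 q of all peaks, 15.7, left 1101 sites, of which 0 and 1 were past 2-fold between the sexes in B6 and CAST, 10 and 8 between the strains in males and females, and 5 between the strains in both sexes, where 1, 2, 31, 18 and 7 of all 8530 regions were; 10.4% held the forkhead motif. The share in the first intron was 40.1% at a TSS limit of 1 kb and 48.3% when any transcript counted. Without centring, 101 sites were past 2-fold between the sexes in B6 and 55 in CAST, and 11 in both strains in the same direction. Between the strains, 99 were past it in males (3.04%, against 1.74% of all regions) and 144 in females (4.43%, against 2.38%). In both sexes there were 44 (1.35%, against 0.772% of all regions). With ratios of fold enrichment above 1 the counts were 59, 68, 216 and 202 for the sexes in B6 and CAST and the strains in males and females, 4 in both strains and 84 in both sexes (1.81%, 2.09%, 6.64%, 6.21%, 0.123% and 2.58% of sites, against 1.35%, 1.36%, 3.76%, 3.91%, 0.117% and 1.28% of all regions). Chosen after seeing the data, a 1.5-fold limit gave 174, 181, 447 and 387, with 24 and 169 shared (5.35%, 5.56%, 13.7%, 11.9%, 0.738% and 5.19% of sites, against 3.78%, 4.12%, 8.28%, 8.38%, 0.444% and 3.05% of all regions), and centring on the sites themselves moved no total by over 1.5 times, while the sites higher in Female_B6 went from 1 to 2. Within 100 bp of the summit, 5.99% of sites held the forkhead motif and 0.584% the CTCF core. Where a cause is not given by the setting itself, the cause was not tested. No paired analysis was possible because the peak lists pool the 4 libraries of a group, and for the same reason no library could be left out. Pileups at these sites were lowest in the female lists, with medians of 63 and 50 reads, but by the genome-wide background only Female_CAST (7.94 reads) stood below the others (13.93 to 15.35).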

Other observations

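The strongest constitutive intronic DHS, in intron 1 of Kctd16, was also narrow. Its joined region was 370 bp wide, against a median of 818 bp, and its pileups were 864, 704, 1102 and 549 reads in Male_B6, Female_B6, Male_CAST and Female_CAST. The local background there was 31.9, 27.8, 37.6 and 20.3 reads, above the genome-wide value in each list, and its window had no near-identical copy in the reference.

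The share of sites in the first intron differed between genes, whose intron lengths were not compared. In Itpr1, 0 of 12 sites lay in the first intron of the longest transcript, while in Rora 7 of 15 and in Zmiz1 6 of 11 did. The Fmo2 site, among those most open in CAST, had a centred male-over-female log2 ratio of -0.64 in B6 and -0.30 in CAST beside its strain difference.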
